A study of Homo sapiens with 8 samples.

Results

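The 39 genes described here are interferon-stimulated genes, taken as a list of gene symbols and matched by Ensembl identifier to the deposited table of 60617 genes. Each symbol matched 1 row, and RIGI is the current symbol of the gene formerly called DDX58. RNA was sequenced from MCF-10A, an established line of human breast epithelium that does not form tumours, in 8 libraries. There were 4 groups of 2 libraries each. Empty cells and NeuT cells were each sequenced untreated and after 12 h in 1 µM JG-98, a small molecule that inhibits Hsp70 chaperones, and the series names the sensitivity of transformed cells to this inhibitor as its question. All groups share the MCF-10A background and one growth medium with horse serum, epidermal growth factor, insulin, hydrocortisone and cholera toxin. The labels do not spell out NeuT. The name is widely used for an activated form of Neu, the rat counterpart of the growth factor receptor ERBB2. The promoter that drives it, whether each line is 1 clone or a pool, whether the libraries came from separate cultures, and whether untreated cells received the solvent of the drug are not given in the labels. P-values below therefore measure the spread between these libraries, which may be technical, and a difference between Empty and NeuT is a difference between these lines.

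Interferons are secreted proteins that bind receptors on the cell surface and activate receptor-bound kinases of the JAK family. Type I and type III interferons act through a complex that contains STAT2 and IRF9 and binds the interferon-stimulated response element in the promoters of antiviral genes. Interferon gamma acts mainly through another element, and induces IRF1 and genes of antigen presentation. Many of these genes are also expressed at a low, constant level in epithelial cells without added interferon, and IRF1 and NF-kB can drive some of them.

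Of the 39 members, 37 had enough counts to be tested. CMPK2, a nucleotide kinase next to RSAD2, had 0 counts in all 8 libraries, which allows up to 0.0787 CPM (counts relative to the TMM-scaled size of the library) in the library of lowest depth. XAF1, an inducible pro-apoptotic factor, had 0 counts in all 4 Empty libraries and between 1 and 10 counts in the NeuT libraries, so no fold is given for either gene.

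Promoter sequence is shown first because the promoters of many interferon-stimulated genes carry the response element. RefSeq windows from 250 bases before to 50 bases after the annotated start (GRCh38.p14) were at hand for 31 of the 39 members. The core of the response element was searched as GAAA, any 2 bases and GAAA on both strands, with overlapping matches counted. It was found in 21 of the 31 members (67.7%) and in 4.38% of the 27305 genes with a window. The stretches below are from members that were higher in NeuT cells or, for IFIT5 and OAS3, did not pass the test between lines. Each is written 5′ to 3′ on the strand of its gene, and capitals mark the matches, which appear as TTTC, 2 bases and TTTC where the match lies on the other strand.
ISG15 (chr1:1013362-1013421, plus strand): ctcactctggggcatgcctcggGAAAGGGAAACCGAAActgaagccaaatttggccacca
IFIT1 (chr10:89392489-89392548, plus strand): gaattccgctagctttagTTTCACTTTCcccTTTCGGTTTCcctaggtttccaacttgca
IFI44L (chr1:78620350-78620409, plus strand): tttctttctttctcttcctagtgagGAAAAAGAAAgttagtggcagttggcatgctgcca
IFI6 (chr1:27672262-27672361, minus strand): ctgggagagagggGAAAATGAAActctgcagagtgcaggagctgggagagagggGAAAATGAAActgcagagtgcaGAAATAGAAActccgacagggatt
BST2 (chr19:17405723-17405782, minus strand): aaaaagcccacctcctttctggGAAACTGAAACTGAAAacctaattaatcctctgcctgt
IFITM3 (chr11:320869-320928, minus strand): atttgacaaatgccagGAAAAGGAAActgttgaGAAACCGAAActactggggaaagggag
IFIT5 (chr10:89414508-89414567, plus strand): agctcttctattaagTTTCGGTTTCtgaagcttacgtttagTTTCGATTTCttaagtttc
OAS3 (chr12:112938414-112938473, plus strand): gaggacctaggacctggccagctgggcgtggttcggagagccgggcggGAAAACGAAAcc

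The matches in ISG15 and BST2 overlap each other, so that one unbroken run holds both. IFI6 holds 3 separate matches within 100 bases. The element was present in 15 of the 22 members with a window that were higher in untreated NeuT cells, and in 6 of the 7 with a window that did not pass the test. IFIT5 and OAS3, printed above, are among the latter. The promoter of IRF1, itself a transcription factor, held no match to this core, but held the interferon gamma activated site searched as TTCNNNGAA, shown in capitals.
IRF1 (chr5:132490873-132490912, minus strand): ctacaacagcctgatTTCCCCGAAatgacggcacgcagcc
That shorter pattern was found in 11 of 31 members (35.5%) and in 9.38% of all genes with a window. A match describes the letters in the window and is no evidence of binding.

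**Figure D1:**
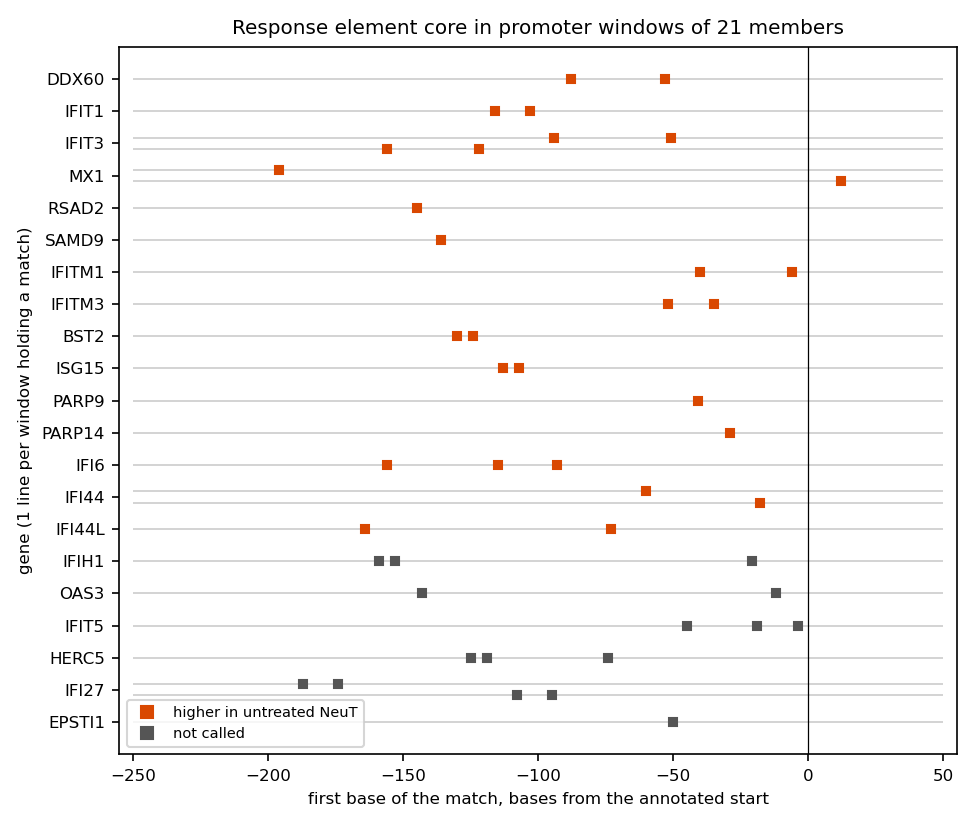
Position of each match to the response element core in the promoter windows of the 21 members that hold one, in bases from the annotated start (vertical line at 0). Each grey line is 1 window from 250 bases before to 50 bases after a start, squares are matches, and colour gives the call between untreated lines. Members that were higher in NeuT and members that were not called both carry matches, most of them upstream of the start.

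As to the libraries, total counts ranged from 55050996 to 56861971, except for replicate 1 of Empty with JG-98, which had 37341458. Markers of basal breast epithelium summed to between 19738 and 20595 CPM in the Empty libraries and between 24295 and 25407 CPM in the NeuT libraries. Where 21.2% of all genes were higher and 20.8% were lower in untreated NeuT (edgeR), 5 of these 7 markers were higher and 1 was lower (KRT17, 5933 and 4646 CPM as means of Empty and NeuT), and of 4 general epithelial markers 3 were higher and 1 was lower (EPCAM, 203.3 and 97.1 CPM). The 3 endothelial markers summed to between 10.6 and 15.1 CPM in Empty and between 8.29 and 9.94 CPM in NeuT, mostly from PECAM1, which was lower in untreated NeuT. CDH5 was called higher there, with 4 and 7 counts in untreated Empty and 34 and 16 counts in untreated NeuT. It had enough counts for the test only through NeuT and so had to differ. The 8 leukocyte markers summed to between 5.22 and 7.49 CPM in Empty and between 11 and 12.5 CPM in NeuT, mostly from CD14, and 4 of the 8 had at most 3 counts in every library. Markers of plasmacytoid dendritic cells, the main producers of type I interferon in blood, summed to at most 0.037 CPM. The 5 fibroblast markers summed to between 8.49 and 9.76 CPM in Empty and between 68.3 and 82.8 CPM in NeuT. That difference lay mostly in DCN, which was higher in NeuT by 4.42 on the log2 scale, and the part of these marker differences in the results below was not tested.

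Of the 37 tested members, 27 were higher in NeuT at an adjusted p-value under 0.05 (edgeR), 1 was lower and 9 did not pass the test. Of all 17693 genes tested, 21.2% were higher and 20.8% were lower in the same comparison. The median difference over the 37 members was 0.96 on the log2 scale, and over all genes tested it was -0.02. OAS2, BST2 and MX2 had enough counts for the test only through their NeuT libraries and so had to differ. Of the 29 members with at least 10 counts in every library, 21 were higher and 1 was lower, with a median difference of 0.85 (log2). A fit of only the genes with that many counts called 3622 genes higher and 3414 lower. Their share is not given here, and the 21.2% above covers genes with fewer counts too. In bulk RNA, fewer cells that express a gene and less RNA per cell cannot be told apart. The 39 members summed to between 597.5 and 603.6 CPM in the 4 Empty libraries and to between 893.4 and 933.9 CPM in the 4 NeuT libraries.

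**Figure D2:**
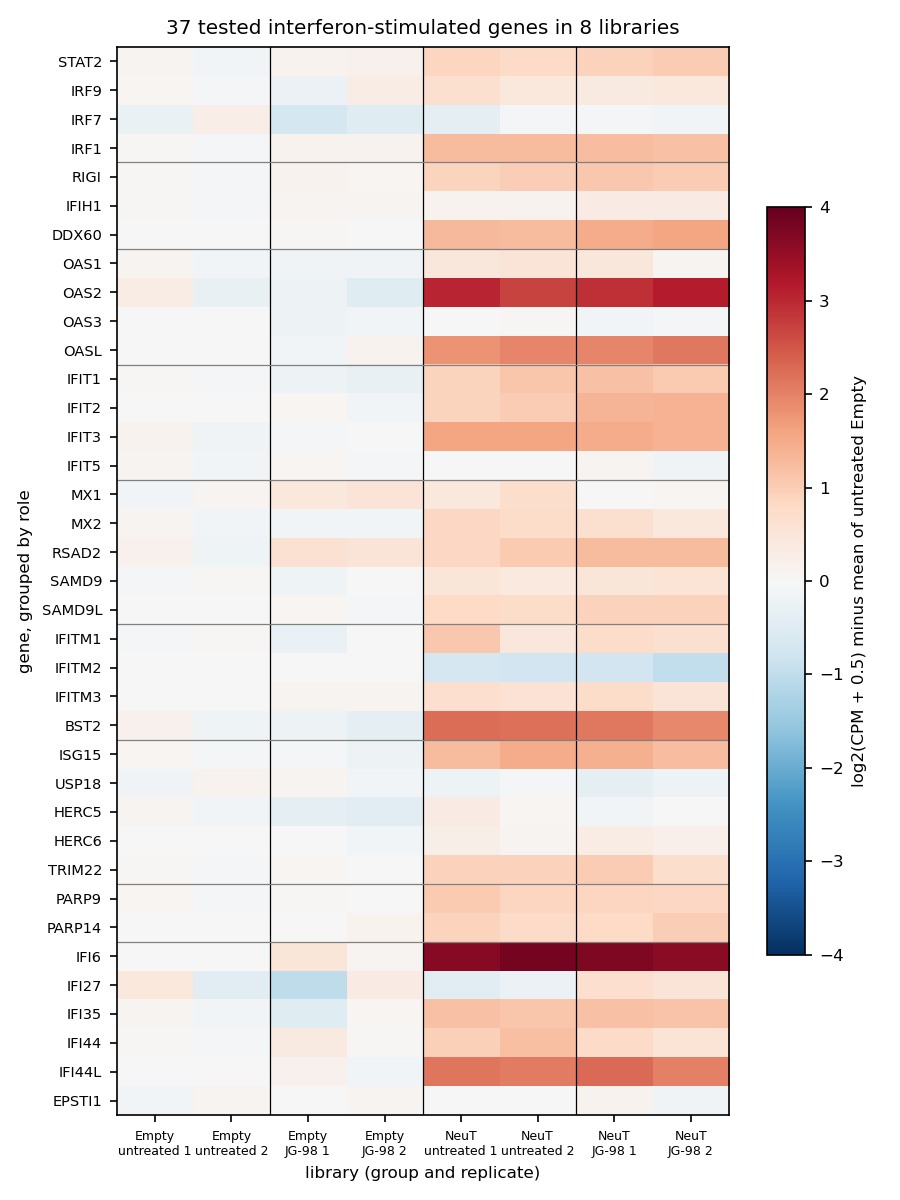
Level of each of the 37 tested members (vertical axis, grouped by role) in each of the 8 libraries (horizontal axis), as log2(CPM + 0.5) minus the mean of the untreated Empty libraries. The medians over members lie between -0.04 and 0.04 in the Empty libraries and between 0.70 and 0.87 in the NeuT libraries, and IFITM2 is lower in all 4 NeuT libraries.

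Among the transcription factors, 3 of 4 were higher in untreated NeuT cells, where 21.2% of all genes were, and 1 of the 3, IRF9, was at the threshold. Classes this small are described by their members, and their counts are not set apart from that share. STAT2, the subunit with the activation domain of the interferon-stimulated complex (chromosome 12, 56341597 to 56360167), stood at 17 and 14.8 CPM in untreated Empty, 17.6 and 18 CPM in Empty with JG-98, 29.3 and 27.6 CPM in untreated NeuT, and 30.6 and 32.9 CPM in NeuT with JG-98. Every NeuT library was above every Empty library, and the untreated difference was 0.84 ± 0.0856 (log2, SE; adjusted p = 5.05e-07, edgeR). IRF1, which binds a similar element (chromosome 5, 132481609 to 132490777), had 15.9 and 15.1 CPM in untreated Empty, 17.1 and 17.2 CPM in Empty with JG-98, 37.9 CPM in both untreated NeuT libraries, and 37.1 and 35.4 CPM in NeuT with JG-98. The IRF1 difference between untreated lines was 1.29 ± 0.0747 (log2, SE; adjusted p = 4.47e-10, edgeR), and 22.1% of its exon bases overlap other annotated genes, which the counting may or may not have separated.

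The other two factors were scarce. IRF9, the DNA-binding partner of STAT2, was at 0.705 and 0.578 CPM in untreated Empty, 0.472 and 0.887 CPM in Empty with JG-98, 1.26 and 1.02 CPM in untreated NeuT, and 0.962 and 1.04 CPM in NeuT with JG-98. Its untreated difference of 0.83 ± 0.324 (log2, SE) was at the threshold (adjusted p = 0.0495, edgeR) and was called in 7 of 17 alternative analyses. It was lost when any one of the 4 untreated libraries was left out (adjusted p from 0.0702 to 0.235) and with DESeq2 (adjusted p = 0.108), and 45.5% of its exon bases overlap another gene. IRF7, the factor that amplifies production of interferon alpha, was at 0.282 and 0.649 CPM in untreated Empty, 0.0787 and 0.17 CPM in Empty with JG-98, 0.238 and 0.408 CPM in untreated NeuT, and 0.426 and 0.37 CPM in NeuT with JG-98. The untreated groups of IRF7 overlapped, and it did not pass the test between them.

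Among the helicase sensors of viral RNA, 2 of 3 were higher in untreated NeuT cells, against the same 21.2% of all genes. RIGI, which recognises RNA with a 5′ triphosphate, differed by 0.96 ± 0.0729 (log2, SE), with 22.7 ± 1.21 CPM in untreated Empty and 44.1 ± 1.68 CPM in untreated NeuT (SD, n = 2). DDX60, a related helicase, differed by 1.31 ± 0.0779 (log2, SE), from 13.7 ± 0.412 to 34 ± 0.687 CPM. IFIH1, which encodes MDA5, a sensor of long double-stranded RNA, had 23.6 ± 1.14 and 26.3 ± 0.0535 CPM and did not pass the test (log2 difference 0.16, adjusted p = 0.104, edgeR), although its untreated libraries did not overlap.

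The OAS enzymes make 2′-5′ linked oligoadenylates that activate RNase L, and OAS1, OAS3 and OAS2 lie side by side within 104.9 kb of chromosome 12 (112906783 to 113011723). OAS2 had 20 and 4 counts in untreated Empty, 4 and 0 counts in Empty with JG-98, 287 and 216 counts in untreated NeuT, and 261 and 304 counts in NeuT with JG-98. It was near the detection limit in Empty and well above it in every NeuT library, with an untreated difference of 4.44 ± 0.471 (log2, SE; adjusted p = 2.02e-05, edgeR). Its size depends on the Empty libraries: OAS2 differed by 6.0 without replicate 1 and by 3.71 without replicate 2 of untreated Empty. OAS2 had enough counts for the test only through NeuT, so its p-value adds no support. OAS1 had 20.6 and 17.8 CPM in untreated Empty, 17.4 CPM in both Empty libraries with JG-98, 26.6 and 27.5 CPM in untreated NeuT, and 26.4 and 20.6 CPM in NeuT with JG-98. The OAS1 difference was smaller, 0.49 ± 0.105 (log2, SE; adjusted p = 0.00115, edgeR), and 1 library of NeuT with JG-98 was as low as the highest untreated Empty library.
OAS3, between them on the chromosome, had 39.8 ± 0.931 CPM in untreated Empty and 40.9 ± 0.937 CPM in untreated NeuT (SD, n = 2), a log2 difference of 0.04 ± 0.0675 (SE) that did not pass the test. OASL, a family member on the same chromosome (121019111 to 121039242) that lacks enzyme activity and acts with RIGI, had 6.13 and 6.01 CPM in untreated Empty, 5.54 and 6.73 CPM in Empty with JG-98, 22.2 and 25 CPM in untreated NeuT, and 24.8 and 28.1 CPM in NeuT with JG-98. Its groups were widely apart, by 1.96 ± 0.111 (log2, SE; adjusted p = 3.37e-10, edgeR) without the drug.

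Of the IFIT family, IFIT1 binds viral RNA lacking the methyl marks of host mRNA. The genes IFIT2, IFIT3, IFIT1 and IFIT5 follow each other within 137.3 kb of chromosome 10 (89283694 to 89420997). The first 3 were higher in untreated NeuT and IFIT5 was not. IFIT3 had 7.61 and 6.14 CPM in untreated Empty, 6.38 and 6.97 CPM in Empty with JG-98, 21.3 and 21.5 CPM in untreated NeuT, and 20.1 and 18.8 CPM in NeuT with JG-98. IFIT1 had 0.898 and 0.824 CPM in untreated Empty, 0.682 and 0.614 CPM in Empty with JG-98, 2.05 and 2.41 CPM in untreated NeuT, and 2.59 and 2.33 CPM in NeuT with JG-98. For both genes all NeuT libraries lay above all Empty libraries, with untreated log2 differences of 1.64 ± 0.107 for IFIT3 (SE; adjusted p = 2.13e-09, edgeR) and 1.37 ± 0.237 for IFIT1 (SE; adjusted p = 0.000162, edgeR). IFIT2 was higher by 1.11 ± 0.158 (log2, SE). IFIT5 had 32.4 ± 3.23 CPM in untreated Empty and 32.1 ± 0.27 CPM in untreated NeuT (SD, n = 2), a log2 difference of -0.01 ± 0.0919 (SE).

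**Figure D3:**
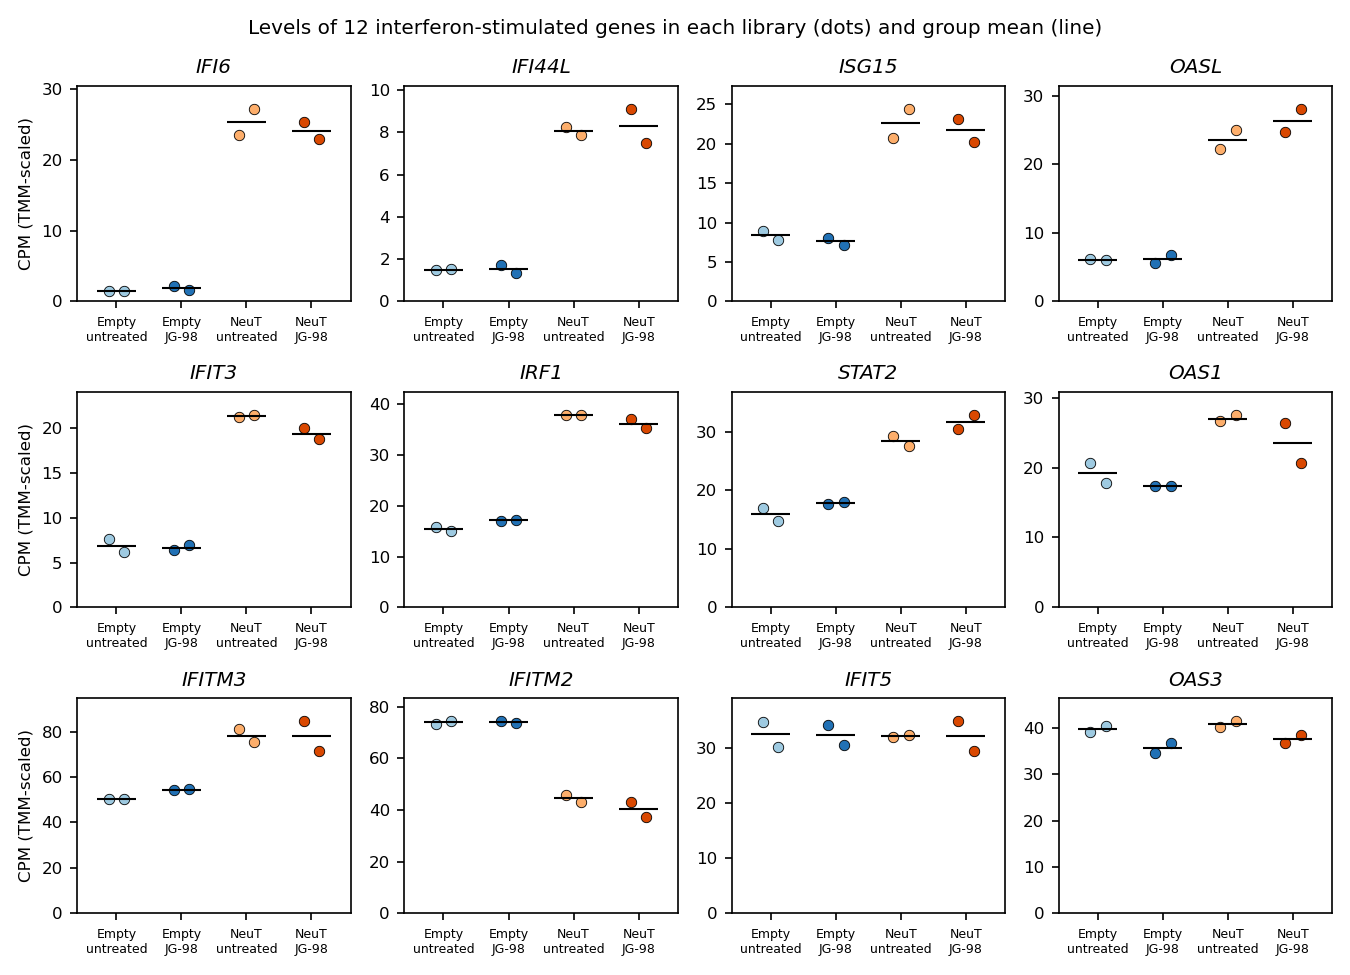
CPM scaled by TMM (vertical axes, each from 0) of 12 members in the 4 groups, with 1 dot per library and a line at the group mean. IFI6, IFI44L, ISG15, OASL, IFIT3, IRF1 and STAT2 sit higher in all NeuT libraries, IFITM2 sits lower in them, and IFIT5 and the untreated libraries of OAS3 overlap between lines.

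Of the tested effectors that act on viral RNA or its complexes, 4 of 4 were higher in untreated NeuT, where 21.2% of all genes were, leaving out MX2, which had enough counts for the test only through NeuT. MX1, MX2 and RSAD2 rest on few counts. MX1, a dynamin-like GTPase that traps viral nucleocapsids (chromosome 21, 41420304 to 41459214), had 4 and 9 counts in untreated Empty, 12 and 22 counts in Empty with JG-98, 18 and 27 counts in untreated NeuT, and 6 and 8 counts in NeuT with JG-98. Its untreated difference of 1.84 ± 0.591 (log2, SE; adjusted p = 0.0188, edgeR) was lost without replicate 1 of untreated Empty (adjusted p = 0.163) or without replicate 2 of untreated NeuT (adjusted p = 0.15), and without replicate 2 of untreated Empty it was 2.52. MX2, its neighbour, had 4 and 0 counts in untreated Empty and 24 and 21 counts in untreated NeuT. RSAD2, which encodes viperin, had 12 and 4 counts in untreated Empty, 18 and 24 counts in Empty with JG-98, 35 and 44 counts in untreated NeuT, and 56 counts in both NeuT libraries with JG-98. The abundant pair SAMD9 and SAMD9L, restriction factors next to each other on chromosome 7, differed by 0.44 ± 0.065 and 0.80 ± 0.0928 (log2, SE).

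The membrane effectors were the only class with a member called in the opposite direction. The IFITM proteins hinder fusion of viruses with cell membranes, and their genes lie within 19.9 kb of chromosome 11 (307631 to 327537). IFITM2 had 73.5 and 74.5 CPM in untreated Empty, 74.4 and 73.8 CPM in Empty with JG-98, 45.8 and 43.3 CPM in untreated NeuT, and 43.3 and 37.4 CPM in NeuT with JG-98. IFITM3 had 50.2 and 50.1 CPM in untreated Empty, 54.3 and 54.5 CPM in Empty with JG-98, 80.9 and 75.5 CPM in untreated NeuT, and 84.6 and 71.6 CPM in NeuT with JG-98. Thus IFITM2 was lower in every NeuT library, by a log2 difference of -0.73 ± 0.0708 without the drug (SE; adjusted p = 2.63e-07, edgeR), and IFITM3 was higher, by 0.64 ± 0.0738 (log2, SE; adjusted p = 2.18e-06, edgeR).
IFITM1 was scarce, with 0.247 and 0.28 CPM in untreated Empty, 0.131 and 0.256 CPM in Empty with JG-98, 1.11 and 0.538 CPM in untreated NeuT, and 0.777 and 0.685 CPM in NeuT with JG-98. Its untreated difference was 1.64 ± 0.444 (log2, SE; adjusted p = 0.00651, edgeR), and without replicate 1 of untreated NeuT it was 1.04 with an adjusted p of 0.157. The 3 genes are close in sequence and IFITM1 and IFITM2 share exon bases (37.5% of those of IFITM1), so reads could be divided between them by the counting, and their separate values are uncertain.
BST2, also called tetherin, which holds budding viruses at the cell surface (chromosome 19, 17402939 to 17405630), had 12 and 4 counts in untreated Empty, 2 and 0 counts in Empty with JG-98, 137 and 130 counts in untreated NeuT, and 123 and 102 counts in NeuT with JG-98. It was near the detection limit in Empty, and the untreated difference was 4.11 ± 0.409 (log2, SE; adjusted p = 3.95e-07, edgeR). BST2 differed by 5.09 without replicate 1 and by 3.52 without replicate 2 of untreated Empty. Like OAS2, it had enough counts for the test only through NeuT, so its p-value adds no support.

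ISG15 is a ubiquitin-like protein that is attached to other proteins during the response (chromosome 1, 1001138 to 1014540). It had 8.95 and 7.82 CPM in untreated Empty, 8.06 and 7.19 CPM in Empty with JG-98, 20.7 and 24.4 CPM in untreated NeuT, and 23.2 and 20.2 CPM in NeuT with JG-98. All NeuT libraries lay above all Empty libraries, with an untreated difference of 1.43 ± 0.112 (log2, SE; adjusted p = 2.1e-08, edgeR). The ISG15 enzymes among the members were not called between untreated lines. HERC5, its main ligase, and the related HERC6 did not pass the test (log2 differences 0.25 and 0.17), nor did USP18, the protease that removes ISG15 and also dampens the type I receptor (log2 difference -0.16 ± 0.126, SE). TRIM22, an antiviral ubiquitin ligase, was higher by 0.93 ± 0.086, and the ADP-ribosyltransferases PARP9 and PARP14 were higher by 0.96 ± 0.084 and 0.85 ± 0.0829 (log2, SE).

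Among the remaining induced genes, IFI6 had the smallest adjusted p-value of all members. IFI6, a small mitochondrial and endoplasmic reticulum protein with antiviral effects (chromosome 1, 27666064 to 27672198), had 1.41 and 1.47 CPM in untreated Empty, 2.23 and 1.6 CPM in Empty with JG-98, 23.5 and 27.2 CPM in untreated NeuT, and 25.3 and 22.9 CPM in NeuT with JG-98. The untreated difference was 4.13 ± 0.142 (log2, SE; adjusted p = 9.95e-13, edgeR), which is 17.5-fold. IFI44L, which lies beside IFI44 on chromosome 1 (78619922 to 78646145), had 1.46 and 1.53 CPM in untreated Empty, 1.73 and 1.35 CPM in Empty with JG-98, 8.26 and 7.87 CPM in untreated NeuT, and 9.1 and 7.48 CPM in NeuT with JG-98. It was 5.39-fold higher in untreated NeuT (log2 2.43 ± 0.165, SE; adjusted p = 3.25e-09, edgeR), and IFI44 was 2.24-fold higher. IFI35 was higher by 1.23 ± 0.156 (log2, SE), while EPSTI1 (0.01 ± 0.0993) and IFI27 (-0.73 ± 0.845) did not pass the test. IFI27 varied widely between the Empty replicates, with 61 and 21 counts untreated and 3 and 56 counts with JG-98. In NeuT it had 20 and 27 counts untreated and 73 and 63 counts with JG-98.

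Per kilobase of exon, the members spanned a wide range. Averaged over all 8 libraries, IFITM3 (56.6 RPKM), IFITM2 (37.8 RPKM), SAMD9 (19.1 RPKM), ISG15 (17.4 RPKM) and IFI6 (15.7 RPKM) were the most abundant, where RPKM is CPM per kilobase of exon. IFITM2 and IFITM3 ranked differently in the lines. In untreated Empty, IFITM2 was at 48 ± 0.438 and IFITM3 at 43.6 ± 0.0538 RPKM, and in untreated NeuT, IFITM2 was at 28.9 ± 1.13 and IFITM3 at 67.9 ± 3.29 RPKM (SD, n = 2), subject to the shared sequence noted above. IFI6 stood below OAS3 in untreated Empty, at 1.71 ± 0.0531 against 4.87 ± 0.114 RPKM, and above ISG15 in untreated NeuT, at 30.1 ± 3.13 against 26 ± 2.97 RPKM, where the 2 genes did not differ beyond their spread. MX1 (0.0291 RPKM) and MX2 (0.014 RPKM) were the lowest of the tested members.

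With JG-98 in both lines, 28 of the 37 tested members were higher in NeuT (edgeR), 1 was lower and 8 did not pass the test, where 21.7% of all genes were higher and 20% were lower. The median over the members was 0.96, and over all genes it was -0.00111. Of the 29 members with at least 10 counts in every library, 22 were higher and 1 was lower. A fit of only the genes with that many counts called 3624 genes higher and 3368 lower. The treated libraries are separate from the untreated ones. Of the members higher in NeuT, 25 were called in both comparisons, which is 25 of the 27 without and 25 of the 28 with the drug. OAS2, BST2 and MX2 are among the 25 and the 28 and enter the median of 0.96. They had enough counts for the test only through NeuT and so had to differ. Of all genes higher in NeuT, 79.8% of those called without the drug and 77.9% of those called with it were called higher in both. IRF9 and MX1 were called only without it, and HERC6, IFIH1 and IRF7 only with it, and the test of a difference between the comparisons was passed by none of the 5. IFITM2 was lower in both, by a log2 difference of -0.88 ± 0.0714 with JG-98 (SE; adjusted p = 3.12e-08, edgeR).
ISG15 was higher by 1.52 ± 0.115, IFI6 by 3.69 ± 0.14 and IRF1 by 1.08 ± 0.0751 (log2, SE) in treated NeuT. MX2 had 0 counts in both treated Empty libraries and 18 and 12 counts in treated NeuT, at least 4.27-fold higher against a floor of 3 counts per library. IRF7 was at the threshold (adjusted p = 0.0485, edgeR) and was called in 5 of 16 alternative analyses. It was lost without any one of the 4 treated libraries (adjusted p from 0.0647 to 0.217) and with DESeq2 (adjusted p = 0.0822), and without replicate 2 of Empty with JG-98 its log2 difference was 2.30. IFIH1 was called in 13 of 17 alternatives, and was lost with scaling by total counts (adjusted p = 0.122, edgeR), in a fit of the 4 treated libraries (adjusted p = 0.0659, edgeR) and without either treated Empty library (adjusted p = 0.0671 and 0.0923), as was RSAD2 (adjusted p = 0.0502 and 0.105), and IFI44 was lost without replicate 2 of Empty with JG-98 (adjusted p = 0.143) or replicate 1 of NeuT with JG-98 (adjusted p = 0.0545). IFI27, not called here (log2 1.16), was called without replicate 2 of Empty with JG-98 (log2 3.96, adjusted p = 0.00207, edgeR).

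**Figure D4:**
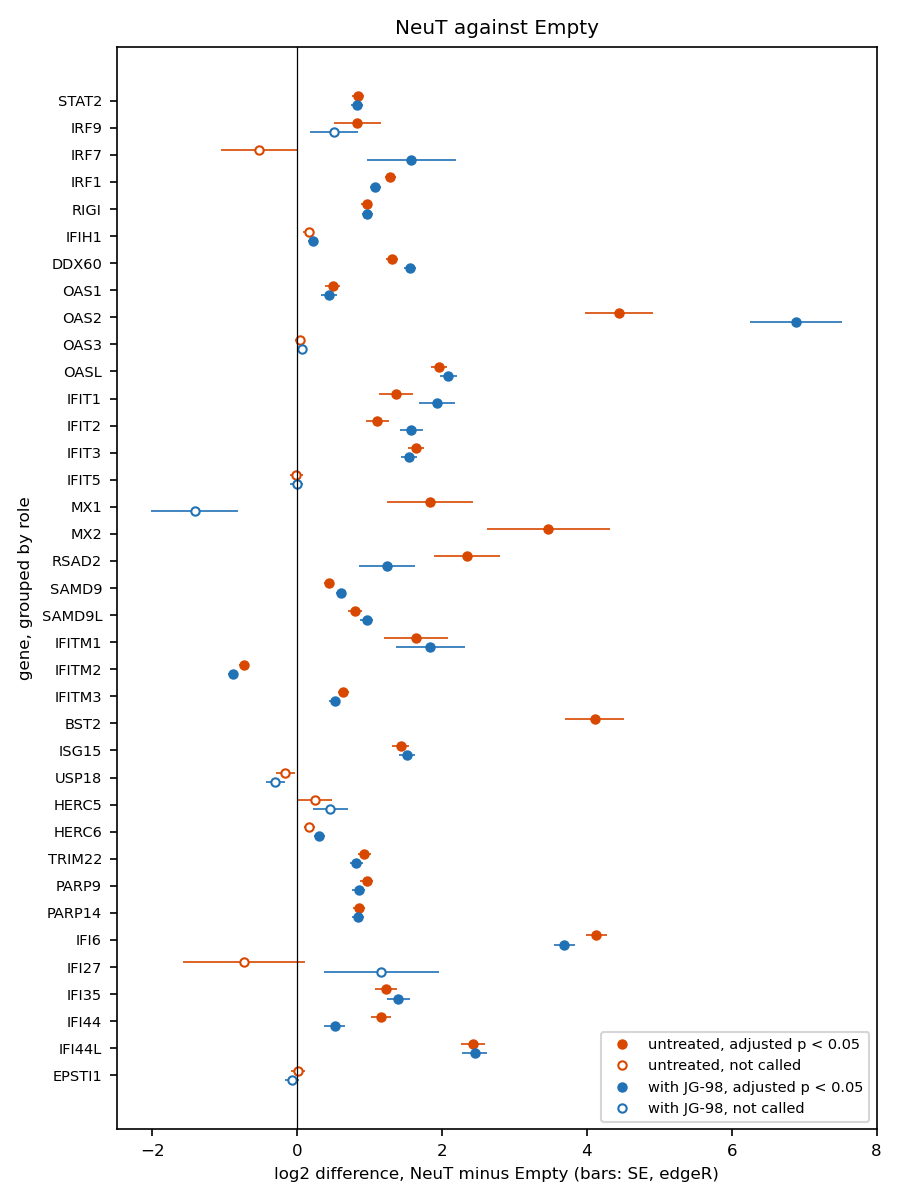
Difference between NeuT and Empty (horizontal axis, log2; bars are SE from edgeR) of the 37 tested members, without drug (orange) and with JG-98 (blue); filled points have an adjusted p under 0.05. MX2 and BST2 with JG-98 are left out because treated Empty held 0 and 2 counts. Most members lie to the right of 0 in both comparisons, and IFITM2 lies to the left in both. MX1, IRF7 and IFI27, and EPSTI1 near 0, lie on opposite sides of 0.

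No member passed the test for JG-98 in either line. In Empty, 0 of 37 members were called (edgeR), where 0.339% of all genes were, and 6 members had an unadjusted p under 0.05, as did 9.83% of all genes. In NeuT, 0 of 37 were called, where 3.01% of all genes were, and 5 had an unadjusted p under 0.05, as did 16% of all genes. DESeq2 and limma-voom also called 0 members in either line. In the authors' deposited tables for the same comparisons, 0 of the 37 members had an adjusted p under 0.05, where 0.271% of all genes did in Empty and 2.97% did in NeuT, with the smallest at 0.305 for MX1 in Empty and 0.068 for DDX60 in NeuT. The median over the members was -0.00362 in Empty and -0.00208 in NeuT on the log2 scale, and -0.00334 and 0.000213 over all genes. A p-value that misses the threshold does not show that a gene did not change.

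Over the 37 tested members, log2 differences with JG-98 in NeuT ranged from -1.66 for MX1 to 1.53 for IFI27. Among the 30 with a mean of at least 50 counts they ranged from -0.43 for IFI44 to 0.45 for IFIT2. The IFI27 libraries with JG-98 lay above the untreated ones (1.53 ± 0.814, SE; adjusted p = 0.431, edgeR), and IFI27 was called without the filter on low counts (adjusted p = 0.0262, edgeR) and in a fit of the 4 NeuT libraries (adjusted p = 0.0486, edgeR). ISG15 differed by -0.05 ± 0.106 (log2, SE), STAT2 by 0.16 ± 0.0829 and IRF1 by -0.06 ± 0.0714. DDX60, with 34.5 and 33.5 CPM in untreated NeuT and 39.3 and 41.8 CPM with JG-98, came nearest to the threshold (log2 0.25 ± 0.0737; adjusted p = 0.0761, edgeR). One library of treated NeuT bears on these counts. Without replicate 1 of NeuT with JG-98, which leaves 1 treated NeuT library assumed to vary like the others, 5 members were called in NeuT, a share near the 11.4% of all genes called in that fit. Their log2 differences were then 0.30 for DDX60, -0.56 for IFI44, -0.39 for OAS1, -0.25 for IFITM2 and -0.23 for TRIM22. The replicates of NeuT with JG-98 differed more than those of other groups, with a chi-square per gene of 22 against 4.52 to 8.2.

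In Empty, the members with the largest differences had few counts. BST2 had 12 and 4 counts untreated and 2 and 0 counts with JG-98 (adjusted p = 0.306, edgeR). RSAD2 had 12 and 4 counts untreated and 18 and 24 counts with JG-98 (log2 difference 1.62 ± 0.49, SE; adjusted p = 0.23, edgeR). The RSAD2 difference was 2.6 without replicate 1 and 1.04 without replicate 2 of untreated Empty. ISG15 differed by -0.14 ± 0.12, STAT2 by 0.16 ± 0.088 and IRF1 by 0.15 ± 0.0774 (log2, SE) in Empty.

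**Figure D5:**
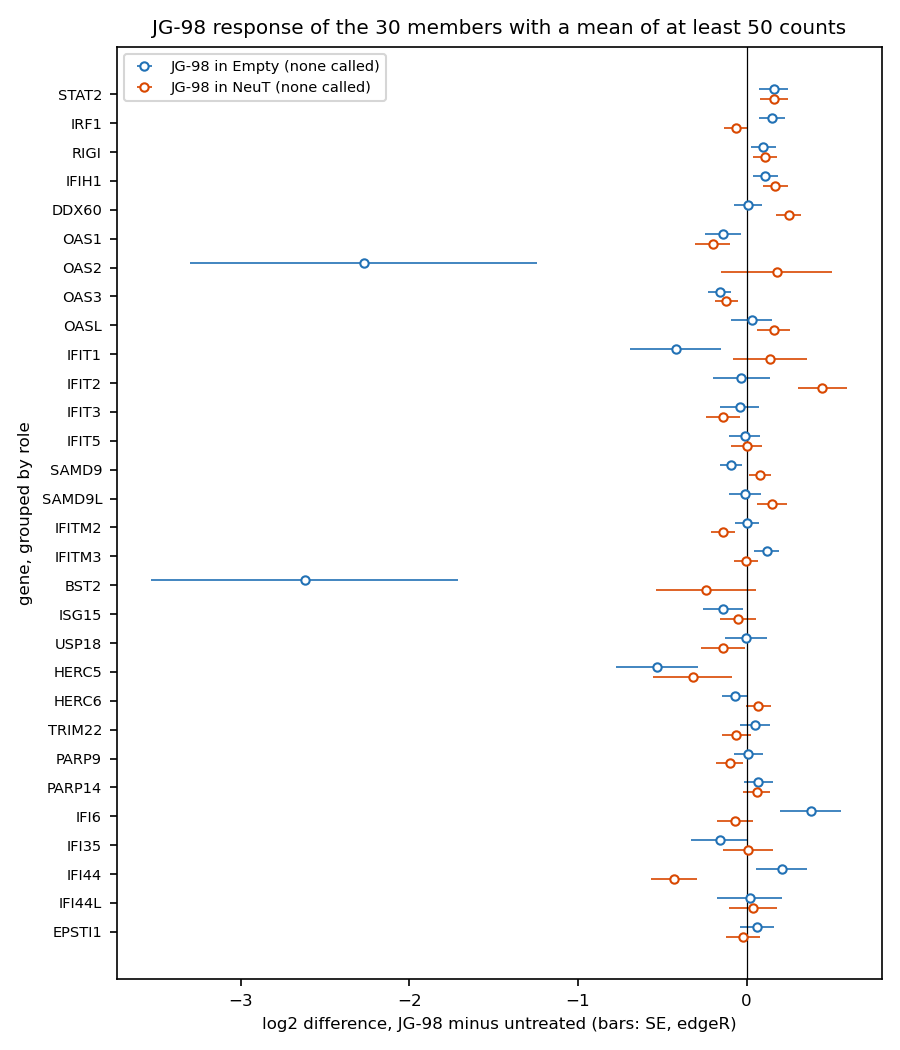
Difference between JG-98 and untreated cells (horizontal axis, log2; bars are SE from edgeR) in Empty (blue) and NeuT (orange) for the 30 members with a mean of at least 50 counts over the 8 libraries. All points are open because none was called, and the far-left points of OAS2 and BST2 in Empty rest on 4 and 2 counts in the treated libraries.

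The response to JG-98 was compared between lines through the interaction of line and drug. Of the 37 members 0 were called (edgeR), where 0.00565% of all genes were, and 6 members had an unadjusted p under 0.05, as did 7.79% of all genes. DESeq2 and limma-voom called 0 members here too. The smallest adjusted p was that of MX1, whose counts were higher with JG-98 in both Empty libraries and lower with it in both NeuT libraries (log2 difference of the responses -3.25 ± 0.844, SE; adjusted p = 0.383, edgeR). The largest of these counts was 27. IFI44 differed by -0.64 ± 0.205 (log2, SE) and passed the test only without replicate 1 of NeuT with JG-98 (-0.77; adjusted p = 0.0388, edgeR).

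The other genes of the pathway were read from lists of ligands, receptors and regulators. RNA of the interferons themselves was at or near the detection limit. IFNB1, IFNA2 and IFNG had 0 counts in all 8 libraries, and IFNE, an epithelial type I interferon, reached 11 counts at most, in NeuT with JG-98. The 8 type I and type III ligands examined summed to at most 0.39 CPM in any library. Of 6 receptor genes, 2 were higher in untreated NeuT. The counts for this and the next lists stand beside the 21.2% of all genes that were higher, and with lists this short, shares such as 2 of 6 lie near it. The interferon gamma receptor chain IFNGR1 had 49.4 and 49.1 CPM in untreated Empty and 74.9 CPM in both untreated NeuT libraries (log2 0.61 ± 0.0696, SE). The second chain, IFNGR2, was higher by 1.58 ± 0.418, but its NeuT libraries ranged from 616 to 1169 counts. IFNAR1, a type I receptor chain, did not pass the test (log2 0.08), nor did IFNAR2, the other chain (log2 0.42). Of the exon bases of IFNAR2, 83.2% overlap other genes, as do 38.3% of those of the receptor gene IL10RB, also not called.

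Of the receptor kinases, JAK1 and JAK2 were higher in untreated NeuT, by 0.18 ± 0.0714 and 0.46 ± 0.123 (log2, SE; adjusted p = 0.0486 and 0.00612, edgeR), and TYK2 did not pass the test (log2 -0.06). Of 12 tested sensors, adaptors and kinases, 4 were higher and 1 was lower, near the shares over all genes. The kinase IKBKE differed by 1.32 ± 0.101, TLR3 by 0.61 ± 0.12, IFI16 by 0.61 ± 0.0603 and STING1 by 0.59 ± 0.0733 (log2, SE). CGAS, the DNA sensor upstream of STING1, was the lower one (-0.46 ± 0.0839). MAVS, the adaptor of RIGI and IFIH1, and the double-stranded RNA kinase EIF2AK2 did not pass the test (log2 0.14 and -0.02).

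Feedback inhibitors and ISG15 enzymes outside the member list came next. Of 5 negative regulators tested, 3 were higher, with SOCS1, an inhibitor of the receptor kinases, at 1.72 ± 0.116 and SOCS3 at 0.74 ± 0.177 (log2, SE). All 3 enzymes of ISG15 attachment examined were higher. UBE2L6, the conjugating enzyme, had 0.916 and 1.09 CPM in untreated Empty and 13.2 CPM in both untreated NeuT libraries (log2 3.72 ± 0.145, SE; adjusted p = 4e-12, edgeR). UBA7, the activating enzyme, was higher by 1.01 ± 0.212 and TRIM25 by 0.17 ± 0.0612.

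Genes best known as targets of interferon gamma were higher in 7 of 8 cases, where 21.2% of all genes were, leaving out GBP5 and CXCL10, which had enough counts for the test only through NeuT. The GTPase GBP1 differed by 1.17 ± 0.0804 and the adhesion molecule ICAM1 by 1.22 ± 0.114 (log2, SE). IDO1, which degrades tryptophan, differed by 3.56 ± 0.412 and the chemokine CXCL10 by 5.02 ± 0.793, the latter from 2 and 0 counts to 32 and 38 counts. In antigen presentation, 4 of 7 tested genes were higher, with HLA-B at 1.62 ± 0.0928, B2M at 0.69 ± 0.0906, PSMB10 at 0.61 ± 0.105 and HLA-C at 0.56 ± 0.064. TAP1 and PSMB9 were listed at 0 and TAPBP at or near 0. These genes lie in the variable HLA region, which the reference also holds as alternate sequences, and how multiply matching reads were treated is not given in the sources used here, so their values are not read as absence. With JG-98, 4 of the 47 tested genes of these lists passed the test in NeuT, where 3.01% of all genes did, and none passed in Empty. WARS1 (log2 0.47 ± 0.0657, SE), a tRNA synthetase, was higher and was called in 17 of 17 alternatives. ICAM1 (0.58 ± 0.107) was higher and was called in 13 of 17, and its call was lost in a fit of the 4 NeuT libraries, without either untreated NeuT library and without replicate 2 of NeuT with JG-98 (adjusted p up to 0.117, edgeR). IFI16 (0.23 ± 0.0594; adjusted p = 0.0485, edgeR) and CGAS (-0.33 ± 0.0861; adjusted p = 0.0494, edgeR) were at the threshold and were each called in 6 of 17 alternatives.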

How the data were processed

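RNA sequencing of poly(A)-selected RNA was done on 8 libraries. The authors deposited raw read counts per gene, laid out as featureCounts writes them, per the file headers, and for each line a table of their own comparison with log2 fold changes, p-values and test scores, which were used only for the members. The submitters' processing notes name Trim Galore 0.5.0, FastQC 0.11.7, HISAT2 2.1.0, SAMtools 1.9, featureCounts 1.6.3 and limma, and the build hg38/GRCh38. Use of strand is not given in the sources used here. In all 8 libraries, 2 counts in a gene were more frequent than 1, as when both mates of a pair are counted, so the number of molecules behind a count may be smaller than the count. The libraries carry no molecular identifiers, so limits for a count of 0 (3 counts) cover counting error only.

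Counts were tested with edgeR 4.0.16 in R 4.3.3, using filterByExpr (minimum count 10, total 15; 17693 genes kept), TMM scaling and 1 robust quasi-likelihood fit of all libraries by group. Benjamini-Hochberg adjustment ran over all genes tested, and a gene with an adjusted p under 0.05 is described as called. CPM and RPKM use TMM-scaled sizes and the exon length in the deposited table. With 2 libraries against 2, an exact permutation test of 1 gene cannot go below 0.333. The scripts were tested on simulated data. Coordinates are those of the deposited table (GRCh38), and promoter windows are from RefSeq. The members and gene lists were chosen with earlier results of these data known. Values in every library are given for the 6 called members with the largest untreated difference in each direction, a mean of at least 50 counts and no overlap between groups, for any member called in a drug contrast, and for ISG15, IFIT1, MX1, OAS1, STAT2, IRF9, IRF7, IRF1 and IFITM1 to IFITM3; values of MX2, RSAD2 and IFI27 in every library, and of DDX60 in NeuT, were added after their values were seen. Replicate numbers were not treated as pairs, since deviations of same-numbered libraries correlated between groups with an r from -0.101 to 0.244. Alternatives were other scalings, filters, tests and fits (DESeq2 1.42.0, limma 3.58.1) and leaving out each library.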

Additional observations from a re-analysis of the deposited data

How the results depend on the processing

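Of the 28 members called between untreated lines, 25 were called in each of the 17 alternatives that tested them, and of the 29 called with JG-98, 25 were. The exceptions are IRF9, MX1 and IFITM1 without, and IRF7, IFIH1, RSAD2 and IFI44 with the drug, given above. Leaving out 1 library at a time gave 26 to 29 members between lines in either state, 0 to 0 for JG-98 in Empty, 0 to 5 in NeuT and 0 to 1 for the interaction; over all genes it gave 5461 to 8218 untreated, 5951 to 7409 treated, 9 to 417 for JG-98 in Empty, 132 to 2133 in NeuT and 1 to 777 for the interaction. The highest of the last 3 came without replicate 1 of NeuT with JG-98, and the cause was not tested.

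Without the filter on low counts, 1 member was called for JG-98 in Empty (OAS2) and 2 in NeuT (IFI27 and IFI44), and over all genes 282 in Empty, 1000 in NeuT and 138 for the interaction, against 60, 533 and 1 in the fit reported. A fit of only the 4 libraries compared called 1 member in NeuT (IFI27), and 205 and 185 genes in Empty and NeuT. DESeq2 called 146 genes in Empty and 19 for the interaction. Total counts without scaling factors called 2 and non-robust estimation 3 for the interaction. Scaling by total counts moved the share of higher genes among those called from 50.5% to 40.7% untreated and from 52% to 41% with JG-98, and the median of the members from 0.96 to 0.89 and 0.88. With the replicate block, 27 and 29 members were called between lines and 0 in each drug contrast (IRF9 was not called untreated, adjusted p = 0.0561, edgeR), and the counts over all genes were 7497, 7451, 66, 593 and 1.

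Some uncalled differences changed sign, most of them near 0; IRF7 and IFI27, at -0.53 and -0.73 untreated, were not. With total counts, OAS3 was at -0.03 untreated and -0.00164 treated and EPSTI1 at -0.05 untreated. IFIT5 with JG-98 was at 0.01 without the filter, 0.00151 with at least 10 counts in every library and 0.000488 with limma-voom, and DDX60 for JG-98 in Empty at -0.000432 without the filter. With 1 library left out, untreated differences between lines ranged from -1.0 to 0.19 for IRF7, -0.11 to 0.09 for IFIT5, -1.31 to 0.23 for IFI27 and -0.09 to 0.12 for EPSTI1, and treated ones from -0.12 to 0.12 for IFIT5 and -0.22 to 0.06 for EPSTI1. Those for JG-98 ranged from -0.02 to 0.04 for DDX60 in Empty and, in NeuT, from -0.17 to 0.06 for ISG15 and -0.23 to 0.08 for TRIM22.

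Depth limits CMPK2, with 0 counts, and XAF1, MX2 and MX1, whose largest counts were 10, 24 and 27.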
